A study of Mus musculus with 3 samples.

Results

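Neutrophil granule protein genes were examined in single-cell RNA-Seq of mouse lung. They were 10 genes of the 32285 listed in the gene tables, taken by name: Ngp, Camp, Ltf, Lcn2 and Mmp8 of the specific granules, Mmp9 of the gelatinase granules, Cd177 of granule and surface membranes, Retnlg, which encodes a secreted resistin-like protein, and Elane and Mpo of the azurophil granules. All 10 were matched in every library. Their unique molecular identifiers (UMIs, each standing for 1 captured transcript molecule) were summed over neutrophils, defined as cells with at least 2% of their UMIs on S100a8 and S100a9. These numbered 339 of 2422 cells in the naive library, 3450 of 10283 cells at 2 hours and 2233 of 8324 cells at 3 days.

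All libraries came from left lungs of mice aged 8 to 10 weeks, and the labels give C57BL/6J for each. The naive library was made from lungs of B6 mice that were not transplanted. In both transplant groups a B6 (CD45.2) donor lung was placed in a recipient of the congenic CD45.1 strain, listed in the methods as B6.SJL-Ptprca Pepcb/BoyJ, after cold ischemia (60 minutes, 4 °C) and then warm ischemia (45 minutes, 28 °C), and was harvested after 2 hours or 3 days of reperfusion. Cells of 2 mice were pooled in each library and sorted, in the transplants for CD45.1, which marks recipient cells. Naive cells are labelled with this sort too, yet cells of B6 mice would carry CD45.2, so the gate used for naive cells is uncertain. Each condition had 1 library, so the intervals below cover counting error only, no test between conditions was possible, and a difference between mice cannot be told apart from a difference between conditions.

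Neutrophils make their granule proteins in a fixed order while they mature in bone marrow. Azurophil granule genes such as Elane and Mpo are transcribed at the promyelocyte stage, specific granule genes such as Ltf, Camp and Ngp at the myelocyte and metamyelocyte stages, and gelatinase granule genes such as Mmp9 later still. Transcripts of the early classes are therefore mostly gone when a neutrophil enters the blood, whereas the proteins stay stored until they are released. In tissue injury, these proteins kill microbes, bind iron and cut extracellular matrix.

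The cells expressed neutrophil markers that their definition did not use. Csf3r, the receptor for granulocyte colony-stimulating factor, was found in 99.4% of naive neutrophils, in 47.1% after 2 hours and in 99.2% after 3 days. The chemokine receptor gene Cxcr2 was found in 89.7%, 61.6% and 92.6%. Ly6g, which encodes a neutrophil surface antigen, was found in only 17.1%, 3.80% and 24.4%. Median depth was 5742 UMIs for a naive neutrophil, 759 after 2 hours and 4585 after 3 days, so the 2-hour shares of cells are shares of shallow cells. The sum of UMIs over neutrophils was 2136548, 3096613 and 11549216. Summed markers of B, T, NK and progenitor cells each stayed at or under 135 UMIs per 1000000 (CPM) in neutrophils of every library, those of monocytes and macrophages were 345, 167 and 661 CPM, and those of alveolar macrophages 317, 46.5 and 87.0 CPM. Of the alveolar macrophage sums, Chil3 alone made up 276, 25.8 and 69.1 CPM, and Chil3 is also listed below as a specific granule gene. Doublets were called among 1.47%, 2.38% and 5.33% of neutrophils. Of the cell barcodes, 23 were shared between the 2-hour and 3-day libraries, 2 of them among neutrophils of both, 8 between the naive and 2-hour libraries, and 1 between the naive and 3-day libraries.

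The 2% threshold passed through a thin part of the distribution in the naive library and a dense part at 2 hours. Just outside it, with 1% to 2% of UMIs on S100a8 and S100a9, were 27 naive cells, 832 cells after 2 hours and 239 after 3 days. Just inside, at 2% to 3%, were 24, 886 and 135. At 2 hours Retnlg was 3591 CPM in the outer band and 6491 CPM in the inner band, and Ngp was 22.5 and 72.3 CPM.

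The regulatory sequence of 5 members is shown here because Ngp, Camp and Ltf lie within 1172 kb of each other on chromosome 9 and in the naive library their UMIs lay largely in the same few cells, while Mmp8 and Retnlg were the 2 members over 2-fold higher at 2 hours than in the naive library. Each is the 250 bases before the start of the gene in RefSeq (build GRCm38.p6), whose starts can differ from the GENCODE M21 gene positions given with the values (also GRCm38, or mm10), written 5′ to 3′ on the gene's own strand. Capitals mark matches to TTNNGNAA on either strand, a core of the sites bound by C/EBP factors, the family that drives granule gene transcription.
Ngp (chr9:110419558-110419807, plus strand): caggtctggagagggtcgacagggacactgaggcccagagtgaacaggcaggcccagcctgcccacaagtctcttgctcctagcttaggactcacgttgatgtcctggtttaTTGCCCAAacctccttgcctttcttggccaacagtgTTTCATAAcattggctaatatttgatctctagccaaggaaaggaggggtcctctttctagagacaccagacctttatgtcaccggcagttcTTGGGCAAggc
Camp (chr9:109849457-109849706, minus strand): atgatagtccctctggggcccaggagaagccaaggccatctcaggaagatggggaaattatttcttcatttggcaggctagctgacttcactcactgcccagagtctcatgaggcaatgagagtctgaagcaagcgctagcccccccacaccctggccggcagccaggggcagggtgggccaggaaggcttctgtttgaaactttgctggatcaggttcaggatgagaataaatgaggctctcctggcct
Ltf (chr9:111019042-111019291, plus strand): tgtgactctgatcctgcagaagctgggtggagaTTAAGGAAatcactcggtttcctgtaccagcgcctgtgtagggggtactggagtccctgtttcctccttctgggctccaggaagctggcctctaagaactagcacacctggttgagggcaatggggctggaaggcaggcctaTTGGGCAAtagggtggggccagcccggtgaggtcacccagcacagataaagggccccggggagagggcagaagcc
Mmp8 (chr9:7558179-7558428, plus strand): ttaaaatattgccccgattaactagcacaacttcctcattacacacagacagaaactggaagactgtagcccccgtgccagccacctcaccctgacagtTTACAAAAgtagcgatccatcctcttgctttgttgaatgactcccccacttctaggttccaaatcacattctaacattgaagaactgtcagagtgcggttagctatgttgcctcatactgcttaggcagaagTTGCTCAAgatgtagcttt
Retnlg (chr16:48872358-48872607, plus strand): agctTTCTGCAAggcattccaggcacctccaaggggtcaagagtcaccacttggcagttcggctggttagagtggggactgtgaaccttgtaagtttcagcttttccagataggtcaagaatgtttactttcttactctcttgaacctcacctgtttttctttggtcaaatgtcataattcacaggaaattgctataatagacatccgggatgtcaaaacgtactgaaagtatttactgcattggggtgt
Ngp held 3 matches, which began 138, 102 and 11 bases before the start. Ltf held 2, at 217 and 75 bases, Mmp8 held 2, at 151 and 19 bases, and Retnlg held 1, at 246 bases. Camp held none in this window. Of the 9 members in the RefSeq table, 6 held a match, against 36.8% of all 32851 windows of this length. GAGGAA, the core of PU.1 sites, was in 6 of the 9, against 23.3% of windows, and TGTGGT, a core of RUNX sites, was in 0 of the 9, against 14.0%. Both strands were searched, and a C/EBP match can contain a PU.1 match. A match of this kind describes letters and does not show binding.

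The specific granule transcripts as a group were highest in naive neutrophils and lowest at 3 days when UMIs were pooled over cells. Together the 5 genes stood at 5229 CPM in naive neutrophils (95% interval 5133 to 5327), 3727 CPM after 2 hours (3659 to 3795) and 1591 CPM after 3 days (1568 to 1615). The log2 ratio was −0.49 (−0.53 to −0.45) for 2 hours to naive, −1.72 (−1.75 to −1.68) for 3 days to naive and −1.23 (−1.26 to −1.19) for 3 days to 2 hours. The first of these had no stable sign. The second also changed sign where neutrophils with other lineages' markers, or those with granule transcripts, were left out, as given below. The ratio of 2 hours to naive was 0.42 as a mean over cells of each cell's own share. It was 0.49 with cells of at least 500 UMIs thinned to that number, which left out 262 of the 2-hour library. Pooling weights cells by their depth, and the naive cells that held most of the Ngp, Camp and Ltf were deep. Without neutrophils that held 2 or more UMIs of another lineage's markers, which left 146, 3251 and 792 cells, these ratios against naive became 2.02 after 2 hours and 0.49 after 3 days. That limit is a fixed count and depends on depth. It also counts Csf1r, Adgre1 and Ly6c2, listed for monocytes and macrophages but found in 36.3%, 28.0% and 24.2% of naive neutrophils. Csf1r was 100 CPM in naive neutrophils against 75.7 CPM in the other naive cells, and Adgre1 84.7 against 49.5 CPM. The cells left out thus cannot be taken as cells of other lineages or as doublets. It left out most neutrophils of the naive and 3-day libraries, with median depths of 5742 and 4585 UMIs, and few at 2 hours, with 759. Median log2 ratios over all genes with UMIs in both libraries were −0.21, 0.24 and 0.37, and centring on them left the sign of each of the 3 comparisons as it was.

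Ngp (ENSMUSG00000032484, chr9:110419747-110423012) encodes neutrophilic granule protein, a cathelicidin-related protein. It was 1708 CPM in naive neutrophils (1653 to 1764), 438 CPM after 2 hours (415 to 462) and 57.9 CPM after 3 days (53.6 to 62.5). Camp (ENSMUSG00000038357, chr9:109847379-109849617), the gene of the antimicrobial cathelicidin peptide, was 1249 CPM (1202 to 1297), 32.3 CPM (26.3 to 39.3) and 23.0 CPM (20.3 to 26.0). Ltf (ENSMUSG00000032496, chr9:111019271-111042767), which encodes the iron-binding protein lactoferrin, was 485 CPM (456 to 515), 36.8 CPM (30.4 to 44.2) and 19.8 CPM (17.3 to 22.6). In pooled UMIs all 3 genes were lower in both transplant libraries than in the naive one. The log2 ratio of 2 hours to naive was −1.96 for Ngp (−2.05 to −1.87), −5.27 for Camp (−5.58 to −4.98) and −3.72 for Ltf (−4.01 to −3.44), and that of 3 days to naive was −4.88, −5.76 and −4.61. Without the cells that held other lineages' markers, only 5 Ngp, 0 Camp and 8 Ltf UMIs remained in the naive library. The log2 ratios of 2 hours and of 3 days to naive were then 5.96 (4.73 to 7.58) and 1.03 (−0.29 to 2.73) for Ngp and 1.21 (0.15 to 2.48) and −0.61 (−1.82 to 0.76) for Ltf, and none is given for Camp. Between 3 days and 2 hours Camp stood at −0.49 (−0.82 to −0.14), and at 0.073 with no cell filter.

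Lcn2 (ENSMUSG00000026822, chr2:32384633-32388252) encodes lipocalin 2, which binds bacterial siderophores and is stored in specific granules. Its level was 1249 CPM in naive neutrophils (1202 to 1297), 1489 CPM after 2 hours (1446 to 1533) and 1122 CPM after 3 days (1103 to 1141). The difference between 3 days and naive was −0.15 on the log2 scale in pooled UMIs (−0.21 to −0.09) and turned to 0.16 as a mean over cells and to 0.41 after thinning. Mmp8 (ENSMUSG00000005800, chr9:7558456-7568485), neutrophil collagenase, was 539 CPM in naive neutrophils (509 to 571), 1730.3 CPM after 2 hours (1684 to 1777) and 369 CPM after 3 days (358 to 380.0). Mmp8 was thus higher at 2 hours than in either other library, by a log2 ratio of 1.68 over naive (1.59 to 1.77), while the ratio of 3 days to naive was −0.55 (−0.64 to −0.45) and that of 3 days to 2 hours −2.23 (−2.29 to −2.17).

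Mmp9 (ENSMUSG00000017737, chr2:164940780-164955850), gelatinase B, had the reverse order. It was 1016 CPM in naive neutrophils (973 to 1059), 341 CPM after 2 hours (321 to 363) and 1232 CPM after 3 days (1212 to 1253). The log2 ratio to naive was −1.57 (−1.68 to −1.47) after 2 hours and 0.28 (0.21 to 0.34) after 3 days. Centred on the median gene, the 3-day ratio was 0.043 (−0.022 to 0.109), so no increase over naive is read from it. Cd177 (ENSMUSG00000052212, chr7:24743983-24760311) encodes a glycosylphosphatidylinositol-anchored surface glycoprotein of neutrophils that binds PECAM1, and was 104 CPM (90.7 to 119), 74.6 CPM (65.3 to 84.9) and 52.0 CPM (47.9 to 56.3). The Cd177 ratio of 2 hours to naive, −0.48 (−0.75 to −0.21), turned to 0.15 as a mean over cells and to 0.034 at an S100 threshold of 5%. Retnlg (ENSMUSG00000022651, chr16:48872621-48874496) was 5143 CPM in naive neutrophils (5047 to 5240), 12493 CPM after 2 hours (12369 to 12619) and 7076 CPM after 3 days (7028 to 7125). Its log2 ratios to naive were 1.28 (1.25 to 1.31) at 2 hours and 0.46 (0.43 to 0.49) at 3 days. Among genes with no more intron sequence than Ltf, the median log2 ratios were 0.093 and 0.497. The 3-day value of Retnlg was thus no higher than that of a typical gene of this kind.

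**Figure D1:**
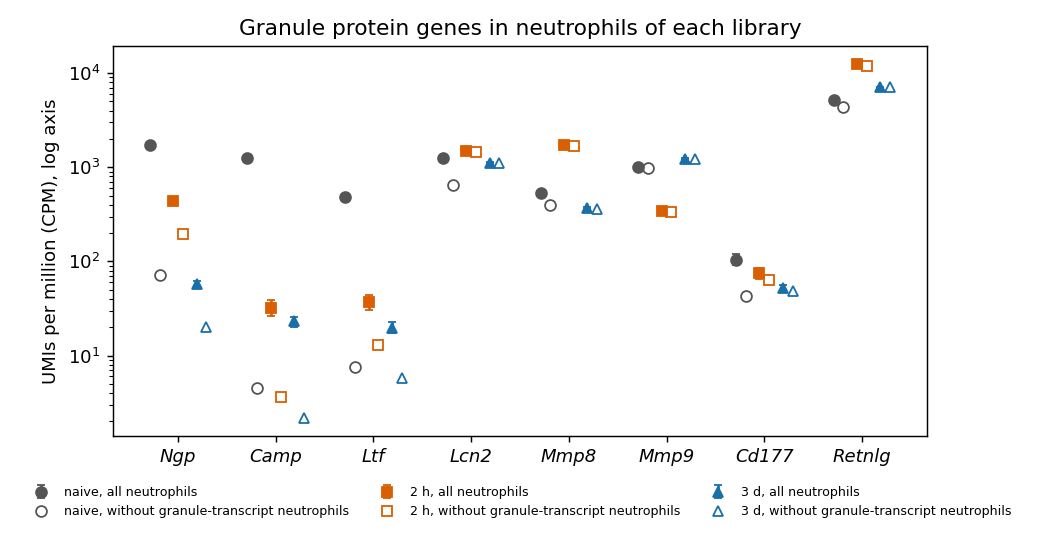
CPM of 8 granule protein genes in neutrophils (log axis) by library, with 95% Poisson intervals of counting error on the filled points. Open points leave out neutrophils with at least 3 UMIs of Ngp, Camp and Ltf among 500, and for Ngp the naive point falls from 1708 to 71.2 CPM, under the 2-hour point at 197 CPM.

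Elane (ENSMUSG00000020125, chr10:79886247-79888215), the gene of neutrophil elastase, had 0 UMIs in naive neutrophils, 1 at 2 hours and 1 at 3 days. Mpo (ENSMUSG00000009350, chr11:87793581-87804413), the gene of myeloperoxidase, had 1 UMI, 1 UMI and 2 UMIs in the same order. All of these lie at or under the floor of 3 counts, which stands for 1.40 CPM in naive neutrophils, 0.969 CPM after 2 hours and 0.2598 CPM after 3 days, so no ratio is given. Of the 4 other azurophil genes in a list set up for this purpose, Ctsg had 0, 0 and 0.173 CPM and Prtn3 0.936, 0.323 and 5.20 CPM. Ctsc, a protease that activates granule serine proteases and is not restricted to azurophil granules, was 29.5, 9.04 and 68.0 CPM. It was the 1 gene of 3 tested that passed 2-fold. Its level was lower at 2 hours than in the naive library, against 11.3% of the 8464 genes tested. It was higher at 3 days than at 2 hours, against 5.49%. Srgn, a granule proteoglycan made at all stages, was 7870.2, 7064 and 7680.3 CPM.

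By size, a member counted as different when CPM plus 10 differed by over 2-fold, for the 8 members with at least 50 UMIs over neutrophils of the 3 libraries. Elane and Mpo did not reach 50. From naive to 2 hours, 2 of 8 were higher (Mmp8 and Retnlg), against 3.62% of the 8464 genes tested, and 4 of 8 were lower (Ngp, Camp, Ltf and Mmp9), against 11.3%. From naive to 3 days, 0 of 8 were higher, against 2.36%, and 3 of 8 were lower (Ngp, Camp and Ltf), against 7.8%. From 2 hours to 3 days, 1 of 8 was higher (Mmp9), against 5.49%, and 2 of 8 were lower (Ngp and Mmp8), against 2.62%. The 3 comparisons share libraries and are not independent of one another.

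The background against the naive library differed with intron length. Among genes with over 100 kb of introns, 47.7% were lower at 2 hours than in the naive library and 41.8% were lower at 3 days. Among the 4416 genes with no more intron sequence than Ltf, which with 20.05 kb has the most of the members, the shares were 3.35% and 1.06%. For those with UMIs in both libraries, median log2 ratios were 0.093 (2 hours to naive), 0.497 (3 days to naive) and 0.405 (3 days to 2 hours). The naive file was written by another software version than the transplant files. The part of this in the members' differences was not tested.

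Few naive neutrophils held nearly all transcripts of Ngp, Camp and Ltf. The 12 naive cells richest in each gene held 99.4% of Ngp UMIs, 99.9% of Camp UMIs and 99.1% of Ltf UMIs, and 90% of each lay in 7, 5 and 5 cells. At 3 days 1 cell held 46.5% of the Ngp, 82.0% of the Camp and 68.1% of the Ltf. At 2 hours Ngp was spread more widely, with 90% of its UMIs over 229 cells, whereas 90% of Camp lay in 23 cells. By comparison, 90% of Mmp9 UMIs lay in 237 naive cells, 715 cells at 2 hours and 1508 cells at 3 days.

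The naive cell with the most UMIs of the 3 genes, of 23871 UMIs in all, held 1057 UMIs of Ngp, 1221 of Camp and 239 of Ltf, together 10.5% of its transcripts, and 278 of Chil3. It also held 25 UMIs of the proliferation genes Mki67 and Top2a, and 0 of Cxcr2, a chemokine receptor of mature neutrophils. The corresponding 2-hour cell held 60 Ngp, 27 Camp and 35 Ltf among 3373 UMIs, and the 3-day cell 311, 218 and 156 among 10454. None of these was called a doublet. One further naive barcode met the S100 threshold but exceeded the limit of 25000 UMIs per cell, and it held 1194 Ngp, 2013 Camp and 224 Ltf among 35718 UMIs. With no cell filter, which brought in this barcode, 7 more at 2 hours and 20 more at 3 days, the specific granule log2 ratio of 2 hours to naive was −0.88 in place of −0.49.

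**Figure D2:**
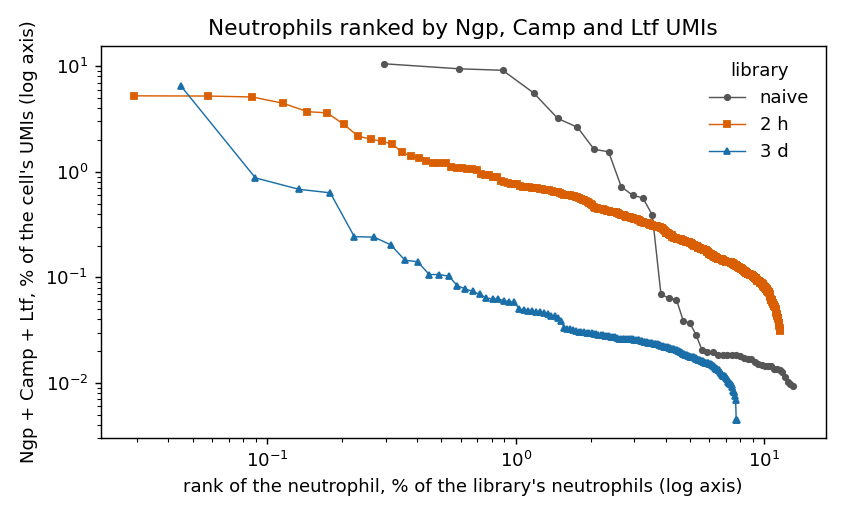
Share of each neutrophil's UMIs on Ngp, Camp and Ltf together (%, log axis), with neutrophils ranked from highest to lowest and the rank given as a percentage of the library's neutrophils (log axis). Cells at 0 are not drawn. The naive line drops steeply after its 12 leading cells, and at 3 days the leading cell stands at 6.55% of UMIs, against 0.876% for the next.

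Neutrophils with granule transcripts were taken as those with at least 3 UMIs of Ngp, Camp and Ltf after thinning to 500 UMIs, a depth that 262 neutrophils of the 2-hour library did not reach. They were 11 of 339 in the naive library (3.24%, exact binomial 95% interval 1.63% to 5.73%), 71 of 3188 at 2 hours (2.23%, 1.74% to 2.80%) and 4 of 2233 at 3 days (0.179%, 0.0488% to 0.458%). At this limit the intervals of naive and 2 hours overlapped, and that of 3 days lay below both. With at least 10 UMIs of the 3 genes there were 6 of 339, 10 of 3188 and 1 of 2233 cells. Unthinned, Camp was in 10 of the 11 naive cells and 22 of the 71 at 2 hours. Ltf was in 9 of the 11 and 9 of the 71. These shares are not at equal depth, as the picked cells had medians of 12622 and 845 UMIs. For every 100 Ngp UMIs the picked cells held 75.8 Camp and 29.1 Ltf UMIs in the naive library. At 2 hours they held 11.7 and 9.86, so the picked cells of these libraries differed in content. Cells with 2 to 4 UMIs, near the limit, numbered 4, 86 and 2. At 2 hours the share moved with the limit, from 3.70% at 2 UMIs to 1.004% at 5 UMIs, and it was 1.10% at 3 UMIs among 300.

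The values without these cells, an alternative chosen after the values had been seen, are a description, since the cells were picked by Ngp, Camp and Ltf themselves. The order of the libraries changed for Ngp, Ltf, Lcn2 and Cd177 and not for Camp. Ngp became 71.2 CPM in the naive group, 197 CPM after 2 hours and 20.1 CPM after 3 days, so that the log2 ratio of 2 hours to naive went from −1.96 to 1.47 (1.20 to 1.74). Camp was then 4.51, 3.63 and 2.17 CPM, and its ratio of 2 hours to naive, −0.31, had an interval of −1.72 to 1.14 on 11 UMIs at 2 hours and 9 in the naive library. Ltf was 7.52, 12.9 and 5.73 CPM, with a ratio of 2 hours to naive of 0.78 (−0.11 to 1.74). Lcn2 was 647, 1439 and 1100.3 CPM, so its ratio of 3 days to naive became 0.77 (0.68 to 0.85). For the 5 specific granule genes together the ratio of 2 hours to naive became 1.56 (1.497 to 1.63) and that of 3 days to naive 0.40 (0.34 to 0.47), while 3 days to 2 hours remained negative at −1.16 (−1.20 to −1.13). Cd177 was 42.6, 63.1 and 48.6 CPM, with ratios to naive of 0.57 (0.19 to 0.95) and 0.19 (−0.14 to 0.54). Mmp8, Mmp9 and Retnlg kept their sign in all 3 comparisons.

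Over all neutrophils the proportion of Camp to Ngp was lower at 2 hours than in the other libraries, and its 3-day value depended on 1 cell. Over all neutrophils there were 73.1 Camp UMIs for every 100 of Ngp in the naive library (69.5 to 76.9), 7.37 at 2 hours (5.95 to 9.03) and 39.8 at 3 days (34.4 to 45.9). Without the 1 cell of each library that was richest in the 3 genes, a setting added after the values had been seen, the values were 55.8 (52.3 to 59.6), 5.63 (4.38 to 7.13) and 13.4 (9.71 to 18.2), so 1 cell moved the 3-day value by more than 2-fold. Among neutrophils with granule transcripts they were 75.8, 11.7 and 55.0. Without cells holding other lineages' markers they were 0 on 5 Ngp UMIs (0 to 109), 5.43 (4.12 to 7.04) and 11.1 (3.44 to 27.9). In that setting 2 hours was not the lowest, and the intervals overlapped. Ngp made up 49.6% of the 3 genes' UMIs in naive neutrophils, 86.4% after 2 hours and 57.5% after 3 days. Outside the granule-transcript cells of the naive library it made up 85.5% of 166 UMIs.

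Thinned to equal depth, Ngp was found in 12 of 339 naive neutrophils (3.54%, 1.84% to 6.10%), 241 of 3188 at 2 hours (7.56%, 6.67% to 8.53%) and 14 of 2233 at 3 days (0.627%, 0.343% to 1.05%). Unthinned, the shares were 8.85%, 10.6% and 5.33%. Camp was found in 2.06%, 0.659% and 0.0896% of thinned neutrophils, and Ltf in 2.65%, 0.816% and 0.403%. Mmp8 was in 15.04% of thinned naive neutrophils, 48.4% at 2 hours and 12.6% at 3 days, and Retnlg in 64.0%, 85.2% and 69.4%. Lcn2 was in 23.6%, 38.7% and 29.7%, Mmp9 in 38.9%, 15.4% and 46.1%, and Cd177 in 4.13%, 3.01% and 2.64%. Unthinned, Camp was in 4.42%, 0.957% and 0.806%, Ltf in 6.19%, 1.16% and 2.15%, and Cd177 in 19.2%, 5.39% and 16.5%. Unthinned, Lcn2 was in 64.6%, 48.4% and 66.2%, Mmp8 in 67.8%, 59.5% and 48.2%, Mmp9 in 96.8%, 23.8% and 94.9%, and Retnlg in 93.8%, 88.3% and 90.0%, so for Lcn2, Mmp8 and Retnlg the order at 2 hours and naive was the opposite of that at equal depth. At equal depth the order of naive and 2 hours for Ngp, and of naive and 3 days for Lcn2, went against that in CPM, so no order is read from the shares of these genes in these comparisons.

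**Figure D3:**
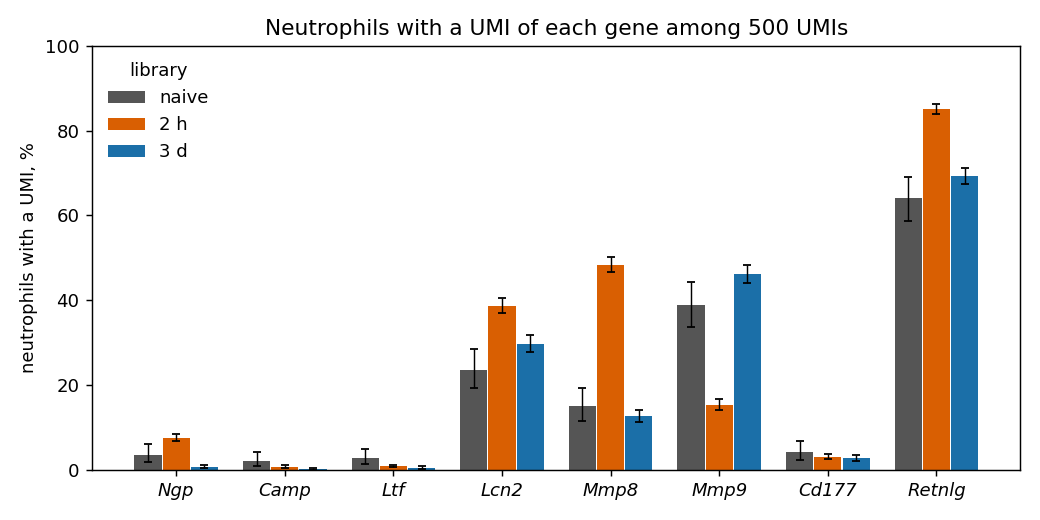
Share of neutrophils with at least 1 UMI of each gene among 500 UMIs (%), by library, with exact binomial 95% intervals. At 2 hours the bar of Mmp8 stands at 48.4%, the highest of its 3, and that of Mmp9 at 15.4%, the lowest of its 3.

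Among thinned 2-hour neutrophils with Ngp, 7.05% also had Camp (17 of 241), against 0.136% of those without Ngp (4 of 2947). Mmp8 was in 75.1% of the cells with Ngp and 46.2% of those without, Lcn2 in 62.7% and 36.8%, and Cd177 in 11.2% and 2.34%. All 241 cells with Ngp had Retnlg, which was in 83.9% of the others. In the naive library 7 of the 12 thinned neutrophils with Ngp had Camp, and all 7 with Camp had Ngp. These are cells of 1 library, which share its preparation, and the shares are given as a description.

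The other members were also higher in the neutrophils that were picked for Ngp, Camp and Ltf. At 2 hours, relative to other neutrophils of at least 500 UMIs, the log2 ratio was 3.15 for Cd177 (2.62 to 3.64), 1.34 for Lcn2 (1.15 to 1.52), 1.34 for Mmp8 (1.17 to 1.51), 1.35 for Retnlg (1.29 to 1.41) and 1.04 for Mmp9 (0.59 to 1.46). In the naive library it was 4.50 for Cd177 (4.10 to 4.91), 3.90 for Lcn2 (3.79 to 4.01), 2.70 for Mmp8 (2.52 to 2.88), 1.89 for Retnlg and 0.67 for Mmp9 (0.46 to 0.87). The naive granule-transcript cells were deeper, with a median of 12622 UMIs against 5704, and had 27.9% of UMIs on S100a8 and S100a9 against 9.09%. At 2 hours the medians were 845 against 783 UMIs and 6.89% against 4.01%. Elane and Mpo had 0 UMIs in the granule-transcript neutrophils of all 3 libraries.

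Genes of circulating neutrophils mostly lay below 0 in the same comparison. The log2 ratio of granule-transcript cells to other neutrophils was −2.71 for Csf3r in the naive library (−3.12 to −2.33) and −1.34 at 2 hours (−1.997 to −0.75). It was −1.87 and −1.33 for Cxcr4, the receptor that guides aged neutrophils to marrow, and −1.86 and −0.93 for the cytokine gene Il1b. Cxcr2 had a ratio of −0.88 (−1.34 to −0.46) in the naive library and 0.05 (−0.25 to 0.34) at 2 hours. Lyz2, lysozyme, was higher by 1.90 (1.78 to 2.01) and 0.82 (0.45 to 1.16), and Chil3, a chitinase-like protein of maturing neutrophils, by 6.32 (5.99 to 6.66) and 3.93 (3.13 to 4.67). Ly6g, the surface antigen used to identify neutrophils, was higher by 3.44 (2.95 to 3.92) in the naive library, and at 2 hours its ratio of 1.02 had an interval of −0.32 to 2.10 on 7 UMIs.

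**Figure D4:**
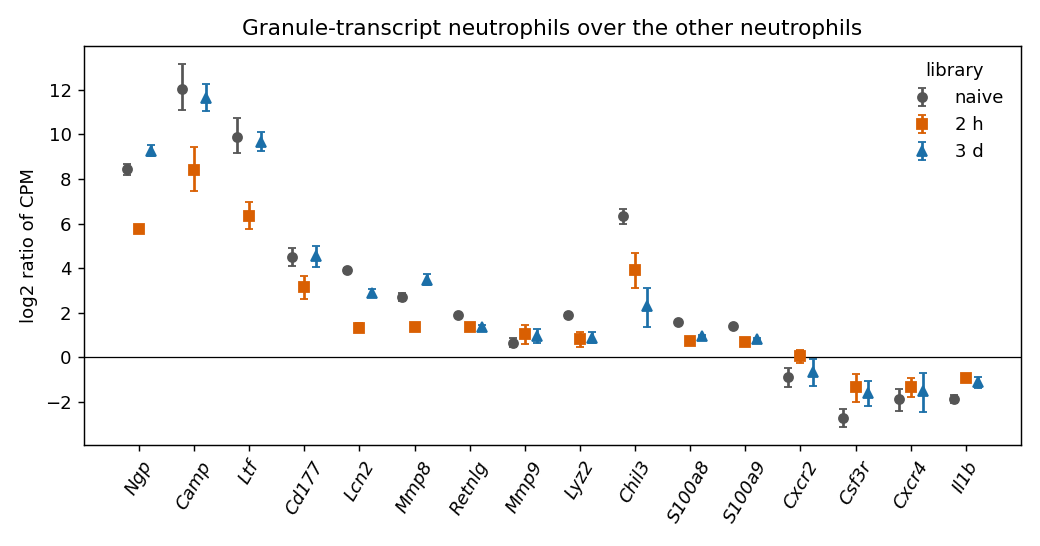
Log2 ratio of CPM in neutrophils picked for Ngp, Camp and Ltf over the other neutrophils of the same library with at least 500 UMIs, by gene and library, with 95% intervals of counting error. The picked cells number 11, 71 and 4. Ngp, Camp and Ltf are high because they chose the cells, Cd177 is above 3 in every library, and Csf3r, Cxcr4 and Il1b lie below 0.

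Outside the members, the 12 genes with the largest ratio in the 71 granule-transcript cells at 2 hours, of 166 with at least 50 UMIs there, were led by Ifitm6 (2.18, 1.78 to 2.56), an interferon-induced membrane protein gene of myeloid cells. Dstn, an actin-depolymerizing factor, followed at 1.60 (1.24 to 1.94), then Wfdc21 at 1.59 (1.31 to 1.86), Prr13 at 1.43 and R3hdm4 at 1.18. Pglyrp1, a peptidoglycan recognition protein of specific granules, stood at 1.13 (0.76 to 1.48), Lyz2 at 0.82, S100a8 at 0.73, Gm14548 at 0.73, Gapdh at 0.70, S100a9 at 0.69 and mt-Co2 at 0.68. Genes entered this list through their UMIs in the granule-transcript cells, and S100a8 and S100a9 define the neutrophils, so the list is a description. The other libraries had too few such cells for this list.

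Related genes that were listed by granule class differed in how they followed the members. Of the 10 other specific granule genes, 8 had 50 UMIs. From naive to 2 hours 0 of 8 were higher and 4 of 8 lower by over 2-fold (Chil3, Lyz2, Cybb and Olfm4), against 3.62% and 11.3% of all genes tested, with a median log2 ratio of CPM plus 10 of −0.97 against −0.11 over all genes. From naive to 3 days 1 was higher (Lrg1) and 2 were lower (Chil3 and Olfm4), against 2.36% and 7.8%, with a median of 0.16 against 0.13. From 2 hours to 3 days 3 of 8 were higher (Chil3, Lyz2 and Pglyrp1) and 0 lower, against 5.49% and 2.62%, with a median of 0.85 against 0.20. These shares and medians over all genes are the background for the lists that follow as well. Chil3 was 276 CPM in naive neutrophils, 25.8 CPM after 2 hours and 69.1 CPM after 3 days, and Olfm4 was 107, 28.4 and 41.1 CPM. Lyz2 was 1871, 573 and 2066 CPM, and Lrg1, which encodes a secreted leucine-rich glycoprotein, was 327, 476 and 916 CPM. Fcnb was at 0, 0 and 0.866 CPM, and Ptx3 was at 0 in the 3 libraries. The 11 naive granule-transcript cells held 501 Chil3 UMIs against 88 in the others, 207 of Olfm4 against 21 and 209 of Cybb against 208. Of these 11 cells, 1 held 278 of the Chil3 UMIs, and the Olfm4 UMIs lay in 3. Among other neutrophils of at least 500 UMIs, Chil3 was 44.1, 19.6 and 68.3 CPM, Lyz2 1584, 566 and 2061, and Cybb 104, 81.6 and 142. There Olfm4 was 10.5, 28.9 and 41.3 CPM, so its naive level was the lowest of the 3.

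Of the 10 gelatinase and secretory genes 8 had 50 UMIs, and 0 passed 2-fold between naive and either transplant library, with medians of 0.06 and 0.02. From 2 hours to 3 days, Mmp25, a membrane-anchored matrix metalloproteinase (27.5 to 74.1 CPM), and Itgb2, the shared chain of the β2 integrins (324 to 687 CPM), were higher, against 5.49% of all genes, and the formyl peptide receptor Fpr1 (344 to 160 CPM) was lower, against 2.62%. The median over the list was −0.11 against 0.20 over all genes. Of 6 regulators tested, Cebpd was higher at 2 hours and at 3 days than in the naive library (94.5, 206 and 241 CPM). Runx1 was lower (758, 233 and 103 CPM). Each was 1 of 6, against 3.62% and 11.3% of all genes at 2 hours and 2.36% and 7.8% at 3 days. The shares of lower genes depended on intron length, as given above. They reached 47.7% at 2 hours and 41.8% at 3 days where a gene's introns summed to more than 100 kb. Runx1 was not compared with genes of like intron length, so its decrease against naive is not read as a change in a regulator. From 2 hours to 3 days Runx1 was lower again and 0 of the 6 were higher. The 3 medians of the list were −0.49, 0.05 and 0.21. Cebpe, the factor needed for specific granule formation, was 9.36, 2.58 and 4.59 CPM and Gfi1 was 1.87, 0.646 and 0.952 CPM. Of 6 proliferation genes 2 had 50 UMIs (Mki67 and Stmn1) and neither passed 2-fold, with medians of −0.40, −0.32 and 0.08. Of 6 genes of circulating neutrophils, Cxcr2 (577, 1384 and 1112 CPM) and Mxd1, a Myc antagonist of terminal differentiation (1890.4, 4899 and 2327 CPM), were higher at 2 hours than in the naive library and Csf3r (2385, 819 and 2385 CPM) was lower, or 2 and 1 of 6 against 3.62% and 11.3% of all genes. From naive to 3 days 0 passed, and from 2 hours to 3 days Csf3r was higher and Mxd1 lower, each 1 of 6 against 5.49% and 2.62%. The 3 medians were 0.74, 0.25 and −0.35.

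In cells of other lineages, called one by one from their markers, Ngp, Camp and Ltf were near 0. In B, T and NK cells, which should lack them, Ngp was at most 1.13 CPM in naive lungs, 3.41 CPM after 2 hours and 0.478 CPM after 3 days. Thinned to 500 UMIs, 0 of 556 naive B cells, which allows a share of up to 0.540%, 0 of 1215 at 2 hours (up to 0.247%) and 0 of 1872 at 3 days (up to 0.160%) had a UMI of Ngp among 500, against 3.54%, 7.56% and 0.627% of neutrophils. Unthinned, 0.719%, 0.318% and 0.267% of B cells had one, against 8.85%, 10.6% and 5.33% of neutrophils. Median depths of B cells were 6196, 778 and 5011 UMIs. Retnlg in lymphocytes was highest at 2 hours, at 292 CPM in B cells, 202 CPM in T cells and 142 CPM in NK cells, and was then in 4.44% of thinned B cells (6.44% unthinned), against 85.2% of neutrophils. For each 1000 UMIs of S100a8 and S100a9 there were 217, 209 and 183 UMIs of Retnlg in these cells and 282 in neutrophils. What part of the lymphocyte values was free RNA was not tested.

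Monocytes and macrophages of the 3-day library lay above lymphocytes in Mmp8, Cd177 and Lcn2, beyond the counting intervals. Cd177 was 53.5 CPM in 2219 monocytes and macrophages (50.7 to 56.3) and 52.0 CPM in neutrophils, against 0.382 CPM in B cells (0.104 to 0.979) and 0.160 CPM in T cells (0.00405 to 0.892). The share of thinned cells with Cd177 was 1.94%, against 2.64% of neutrophils, and unthinned it was 24.6% against 16.5%. For each 1000 S100a8 and S100a9 UMIs, Cd177 had 61.7 UMIs in monocytes and macrophages, 0.390 in neutrophils, 0.617 in B cells and 0.360 in T cells. Mmp8 was 104 CPM in these cells (100.5 to 108) against 369 CPM in neutrophils, or 120.5 against 2.77 for each 1000 S100 UMIs, with 3.24 in B cells and 2.52 in T cells. Lcn2 stood at 59.2 against 8.42 for each 1000 S100 UMIs, with 12.04 and 10.8 in B and T cells. In CPM, Mmp8 and Lcn2 were both lower in monocytes and macrophages than in neutrophils. Lcn2 lay under the 53.5 CPM of Cd177 there, against 1122 CPM in neutrophils. In the naive library Cd177 was 31.8 CPM and Mmp8 32.3 CPM in 263 monocytes and macrophages, and at 2 hours 36.4 and 175 CPM in 340.

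Mmp9 was higher in monocytes and macrophages than in B and T cells but not than in NK cells, and Retnlg had a narrow range. Mmp9 in the 3-day library was 47.1 CPM in 271 NK cells, of which 1 cell held 28 of the 71 UMIs, against 15.2 CPM in B cells, 9.77 CPM in T cells and 44.9 CPM in monocytes and macrophages. Retnlg at 3 days had 35.5 UMIs for each 1000 S100 UMIs in monocytes and macrophages, 46.1 in B cells, 45.4 in T cells, 48.8 in NK cells and 53.1 in neutrophils. Monocytes and macrophages were deeper than B, T and NK cells, with medians of 15443, 1762 and 12113 UMIs. Neutrophils were defined by S100a8 and S100a9, and the other lineages were called only among cells under the same limit. That rule is therefore in the denominator of every proportion, and it widens the contrast for Cd177, whose CPM was close in neutrophils and in monocytes and macrophages. For Mmp8 and Lcn2 the proportions have the opposite order to CPM, which was higher in neutrophils, so they do not show higher expression in monocytes and macrophages.

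**Figure D5:**
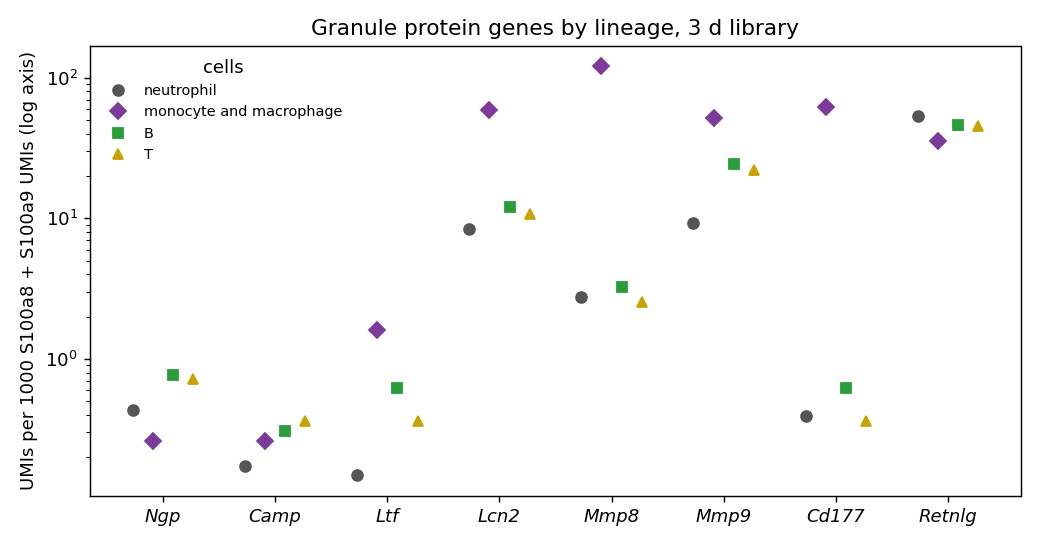
UMIs of each gene for every 1000 UMIs of S100a8 and S100a9 (log axis) in neutrophils, monocytes and macrophages, B cells and T cells of the 3-day library. For Cd177 the monocyte and macrophage point is at 61.7 and the other 3 lie between 0.360 and 0.617, whereas for Retnlg all 4 lie between 35.5 and 53.1. Neutrophils were split from the other cells by S100a8 and S100a9, so that rule is in every denominator. In CPM, Mmp8 and Lcn2 were higher in neutrophils than in monocytes and macrophages.

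The few azurophil transcripts lay mostly outside the neutrophils. At 3 days 15 monocytes and macrophages held 17 Elane UMIs and 7 held 9 Mpo UMIs, against 1 and 2 UMIs in all neutrophils. At 2 hours a single cell called monocyte or macrophage held 3 Elane, 7 Mpo, 21 Prtn3 and 2 Ctsg UMIs together with 10 of Mki67 and 2 of Cd34, a progenitor marker, and 0 of Ngp, Camp and Ltf. None of the 6 barcodes with 3 or more UMIs of Elane and Mpo together, 3 of them left out by the cell filter, had a UMI of Ngp, Camp or Ltf.

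Across 17 points (lineages of at least 50 cells in each library) genes among those with the pattern most like Ngp, by Pearson's r on log2 CPM plus 10 over 13903 genes, were Retnlb (0.99), Gm31583 (0.99), Scrg1 (0.98), 1600002D24Rik (0.98), 5430425K12Rik (0.98), Itgb2l (0.97) and Retn (0.97). Ltf stood at 0.96 and Camp at 0.93. For Retnlg they were G0s2 (0.98), Cstdc4 (0.97), Rdh12 (0.95), Gm34589 (0.95), Stfa2l1 (0.95), S100a9 (0.95), Nlrp12 (0.95) and Il1f9 (0.94), and Lcn2 stood at 0.95. The points share libraries and depth, and 3 of the 17 are neutrophils, so each r rests largely on the contrast between neutrophils and the other cells.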

How the data were processed

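The deposited values were raw UMI counts per gene and droplet called as a cell, which the authors made with Cell Ranger on mm10. Per the file headers the naive library was written by version 7.1.0 and each transplant library by 6.0.0, while the submitters' notes name Cell Ranger 6 and Seurat 4. How intronic reads were treated was not given in the sources used here. Droplets were kept under the study's own limits, with 200 to 6000 detected genes, less than 10% of UMIs from mitochondrial genes and fewer than 25000 UMIs. Scrublet in scanpy 1.11.5 called doublets within each library, and they were removed only as an alternative.

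Neutrophil UMIs were summed per library and divided by all gene UMIs (CPM), with exact Poisson intervals. Intervals of ratios were exact, given the sum of both counts, and those of shares were Clopper-Pearson (scipy 1.17.1). All were at 95% and cover counting error only. With 1 library in each condition no p-value could be had. Other lineages were called cell by cell from at least 2 UMIs of one marker list that held at least 75% of all marker UMIs. Gene positions and intron lengths came from GENCODE M21 and promoters from RefSeq, where 9 of the 10 genes matched. Genes were named by rule, as the 10 members, listed genes by granule class, the 12 with the largest ratio in granule-transcript neutrophils and the 8 most like Ngp and Retnlg, of which 1 is not reported here. The members and lists were chosen with earlier results of these data known. Alternatives were no cell filter, S100 thresholds of 1% and 5%, removal of doublets or of neutrophils with other markers, other denominators, means over cells, thinning and centring. Leaving out granule-transcript neutrophils, or the 1 cell richest in Ngp, Camp and Ltf, was added after the values had been seen. Scripts were checked on simulated counts.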

Additional observations from a re-analysis of the deposited data

Results flagged for a closer look

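Antibody counts were in both transplant files and enter no comparison above. They were singled out as signal outside the gene counts. Of 277 antibodies, those listed for granulocyte antigens (CD11b, CD62L, CD177, CD101, CD184, CD117 and CD49d) had 0 to 4 counts in neutrophils of either library. Many features carry names of human antigens, and how far the antibodies bind mouse proteins was not tested, so these counts do not show that an antigen was absent. Itgam, which encodes CD11b, was 554 and 603 CPM in the same neutrophils. CD44 and CD49f were picked after their values had been seen. CD44 had 376678 counts in neutrophils of the 2-hour library, a mean of 109 per cell against 9.31 in lymphocytes, and 160945 in those of the 3-day library, a mean of 72.1 against 6.62. CD49f had 86604 counts (25.1 against 6.07) and 63556 counts (28.5 against 9.55). At 2 hours the median CD44 count was 81 in the 71 granule-transcript neutrophils and 87 in the others, and that of CD49f was 25 and 21. An isotype control by its name, Rat.IgG1.lambda, had a mean of 0.228 in neutrophils and 0.477 in lymphocytes at 2 hours. At 3 days the means were 0.146 and 0.307. The naive file lists 0 antibody features, so there is no naive comparison.

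Elane and Mpo had 33 UMIs in naive barcodes that the cell filter left out and 7 in such barcodes of the 3-day library, which enter no value above. In the naive library 1 of them held 11 Elane UMIs with 71 of Ly6c2 and 26 of Ccr2, both monocyte genes, among 28543 UMIs, above the limit for a cell, and it had 0 UMIs of Ngp, Camp and Ltf.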

How the results depend on the processing

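No paired analysis was possible because each group had 1 library. For the 5 specific granule genes, the log2 ratio of 2 hours to naive (−0.49) was −0.88 with no cell filter, −0.62 and −0.22 at thresholds of 1% and 5%, −0.59 without S100a8 and S100a9 in the denominator and −0.28 when centred. It reversed to 2.02 without neutrophils that held other lineages' markers, a setting that kept 146 naive, 3251 2-hour and 792 3-day cells, to 0.42 as a mean over cells, to 0.49 after thinning and to 1.56 without granule-transcript cells. The marker setting also counted Csf1r, Adgre1 and Ly6c2, which many naive neutrophils held, so it left out more than cells of other lineages. For 3 days to naive (−1.72) the values were −2.06 with no filter, −1.85 at 5%, −1.68 without S100 genes in the denominator, −0.98 over cells, −0.93 thinned and −1.95 centred, and it reversed to 0.49 without cells holding other markers and to 0.40 without granule-transcript cells. For 3 days to 2 hours (−1.23) they were −1.18 with no filter, −1.09 at 1%, −1.63 at 5%, −1.19 without doublets, −1.52 without cells holding other markers, −1.09 without S100 genes and −1.19 without ribosomal, mitochondrial and immunoglobulin genes in the denominator, −1.40 over cells, −1.41 thinned, −1.60 centred and −1.16 without granule-transcript cells. Of 262 values for single genes 245 kept their direction. When the cell richest in Ngp, Camp and Ltf was left out, the Camp to Ngp proportion changed most at 3 days, from 39.8 to 13.4 UMIs for 100 of Ngp. When cells holding other markers were left out, it was 0 in the naive library on 5 Ngp UMIs, 5.43 at 2 hours and 11.1 at 3 days. Without cells holding other markers, Ngp turned to 5.96 (2 hours to naive) and 1.03 (3 days to naive), Ltf to 1.21 (2 hours), Lcn2 to 0.66 (3 days), Mmp8 to 0.066 (3 days) and Cd177 to 1.33 and 0.47. Without granule-transcript cells Ngp turned to 1.47 and Ltf to 0.78 at 2 hours to naive, Lcn2 to 0.77 at 3 days to naive and Cd177 to 0.57 and 0.19. Lcn2 at 3 days to naive turned to 0.16 over cells and 0.41 thinned, and Cd177 at 2 hours to naive turned to 0.034 at 5% and 0.15 over cells. Camp at 3 days to 2 hours turned to 0.073 with no cell filter. Apart from those that depend on which cells are counted or how they weigh, the causes were not tested. The 2-hour depth of 759 UMIs per neutrophil limits shares of cells there.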
